A study of Mus musculus with 6 samples.

Results

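The retinoid nuclear receptors are 6 mouse genes: the retinoid X receptors Rxra, Rxrb and Rxrg and the retinoic acid receptors Rara, Rarb and Rarg. They were taken by gene symbol, with 1 probe set per gene, the one of highest mean level over all 6 arrays where several name the same gene. All 6 genes were measured, each by its only probe set with 1 gene symbol, among 19938 genes tested. The family was picked with earlier results of these arrays known, so its mean levels are given as a description, and that the largest change in it belongs to Rxrg is not independent evidence.

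RNA came from mandibular arches, the lower jaw part of the first pharyngeal arch, dissected from C57BL/6 mouse embryos at embryonic day 9.5 (E9.5). The Tbx1 null group (Tbx1-/-, 3 arrays) was compared with the wild-type group (Tbx1+/+, 3 arrays). The T-box transcription factor TBX1 acts in the pharyngeal region, and the question is which arch transcripts differ when both copies are lost. Arches of 3 embryos of a genotype were pooled. Whether the 3 arrays had separate pools is not stated, so p-values measure the spread between arrays, part of which may be technical.

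Retinoic acid is made from vitamin A and acts by binding nuclear receptors that sit on DNA. A retinoic acid receptor pairs with a retinoid X receptor, and the pair holds corepressors when empty and recruits coactivators when bound. The retinoid X receptors also serve as partners of many other nuclear receptors, among them those for vitamin D, thyroid hormone and fatty acids. In the pharyngeal arches both too much and too little retinoic acid disturb development, and retinoic acid is known to lower Tbx1 expression.

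The deposited values are log2 expression levels, and changes below are Tbx1 null minus wild type on that scale. The check of the targeted gene came first: Tbx1 (probe set 10438347, Entrez gene 21380) had levels of 9.48, 9.39 and 9.63 in Tbx1 null arrays, against 11.64, 11.36 and 11.31 in wild-type arrays, a change of -1.94 (SE 0.10, limma adjusted p = 0.000684). The sources used here do not give the deleted part of the gene, so this check cannot separate remaining transcript from signal of undeleted exons. The median SD within a genotype was 0.0728 and the median SE of a change 0.0579. Arrays have no depth of reading, so precision is set by how many there are. The mean level of 3 measured Y-linked genes was 9.58, 9.28 and 5.73 on Tbx1 null replicates 1, 2 and 3, against 8.57, 9.07 and 9.85 on wild-type replicates 1, 2 and 3. Tbx1 null replicate 3 thus stood apart by more than repeats of a single pool would. The wild-type arrays differed too, with SDs of 0.66 for Eif2s3y, 0.64 for Kdm5d and 0.65 for Uty, beside the median SD of 0.0728. Whether the pools were separate was not tested. The share of male embryos in each array was not tested. Receptor values without Tbx1 null replicate 3 are given where they turn a direction. Defining markers of mandibular mesenchyme were bright, with Dlx5 at 12.93 ± 0.09 in Tbx1 null and 12.86 ± 0.06 in wild type and Dlx6 at 11.36 ± 0.03 and 11.30 ± 0.05 (SD, n = 3 each). Hand2, a factor of the distal arch, averaged 11.42 ± 0.14 in Tbx1 null and 10.86 ± 0.36 in wild type, with an adjusted p of 0.326. Of 14 measured mesenchyme markers 1 passed, as higher, beside 0.16% of all genes, and the median change was 0.07. At an unadjusted limma p under 0.05 stood 6 as higher and 1 as lower, beside 5.5% and 3.94% of all genes. The 1 that passed was Msx2, a homeobox factor of the distal arch, with 12.19 ± 0.02 in Tbx1 null and 11.80 ± 0.06 in wild type (change 0.39, limma adjusted p = 0.0422). The list gave 0 calls with any 1 array left out.

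Of the 6 receptor genes 1 passed the test, Rxrg, which was lower in Tbx1 null arches. The limma test was adjusted over all 19938 genes by Benjamini-Hochberg with a threshold of 0.05. Of all genes tested 0.16% passed it, made up of 0.0752% of all genes as lower and 0.0853% of all genes as higher. The other 5 receptors had changes between -0.14 and 0.16, and none of them passed. Only the Rxrg arrays did not overlap between genotypes, a pattern that 7.06% of all genes showed in the lower direction and 8.36% in the higher direction. At an unadjusted p under 0.05 stood Rxrg and Rxra as lower and Rarb as higher, 3 of 6 genes, beside 9.44% of all genes, 3.94% as lower and 5.5% as higher. The median change of the 6 was 0.04, against -0.01 over all genes, and was -0.0055 without Tbx1 null replicate 3.

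**Figure D1:**
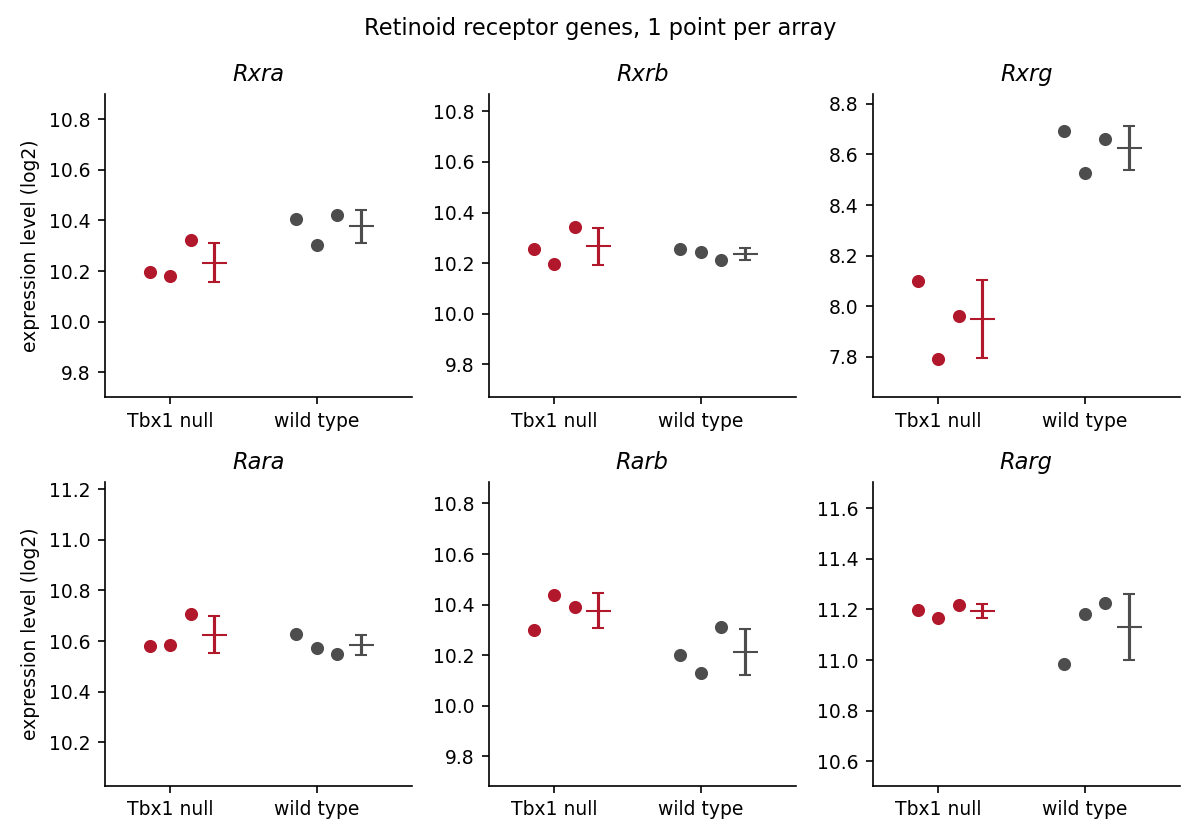
Log2 expression level (vertical axis) of each retinoid receptor gene in the 3 Tbx1 null and 3 wild-type arrays; each point is 1 array, the bar beside the points is the mean ± SD (n = 3), and every panel spans the same height on the log2 scale. The Rxrg arrays of the genotypes lie apart, Tbx1 null at 8.10 or below and wild type at 8.53 or above, while the arrays of the other 5 genes overlap.

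Rxrg encodes retinoid X receptor gamma, the member of its class with the most restricted expression in the embryo, known from skeletal muscle, parts of the nervous system and, in chick, neural crest. Its probe set (10351430, Entrez gene 20183) had levels of 8.10, 7.79 and 7.96 on Tbx1 null replicates 1, 2 and 3, against 8.69, 8.53 and 8.66 on wild-type replicates 1, 2 and 3. The highest Tbx1 null array lay 0.43 below the lowest wild-type array. The mean was 7.95 ± 0.15 in Tbx1 null and 8.63 ± 0.09 in wild type (SD, n = 3 each), a change of -0.68 (SE 0.08, 95% confidence interval -0.87 to -0.48, adjusted p = 0.0422). This is 1.60-fold lower in Tbx1 null, with an interval of 1.40-fold to 1.83-fold. Over all genes tested it was the 24th strongest decrease and 22nd by p.

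The call of Rxrg rested on all 6 arrays. With any 1 of them left out the direction stayed and the change lay between -0.75 and -0.60, but the gene no longer passed: the adjusted p was 0.0796, 0.166 and 0.124 without Tbx1 null replicates 1, 2 and 3, and 0.10, 0.145 and 0.115 without wild-type replicates 1, 2 and 3. The probe set was dimmer than the median gene (mean level 8.55), and no background probes were used here, so its fold may be understated. In bulk tissue, fewer cells that express a gene and less RNA per cell cannot be told apart.

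The promoter of Rxrg is shown because it is the receptor gene that passed the test in tissue lacking a DNA-binding factor. RefSeq lists a pair of start sites on the plus strand in build GRCm38.p6, and each line gives the 250 bases before one of them, at chr1:167598112-167598361 and chr1:167618015-167618264. Capitals mark a nuclear receptor core motif, which is AGGTCA or its variant AGTTCA, its variant GGGTCA or its variant GGTTCA, or else GTGTGA, the core of the T-box motif, on either strand.
Rxrg first start: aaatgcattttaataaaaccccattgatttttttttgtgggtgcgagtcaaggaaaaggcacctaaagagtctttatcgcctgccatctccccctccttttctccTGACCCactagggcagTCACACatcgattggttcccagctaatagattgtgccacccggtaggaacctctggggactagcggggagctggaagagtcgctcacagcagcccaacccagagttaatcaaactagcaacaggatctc
Rxrg second start: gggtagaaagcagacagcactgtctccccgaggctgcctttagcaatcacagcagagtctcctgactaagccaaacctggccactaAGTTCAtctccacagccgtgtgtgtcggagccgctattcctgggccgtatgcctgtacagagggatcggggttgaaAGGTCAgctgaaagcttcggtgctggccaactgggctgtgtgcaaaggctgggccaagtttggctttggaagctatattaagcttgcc
Upstream of the first start, GTGTGA was found on the minus strand (printed as TCACAC) from -129 to -124, counted from the start site, and GGGTCA on the minus strand (printed as TGACCC) from -145 to -140. Upstream of the second start stand AGTTCA from -164 to -159 and AGGTCA from -88 to -83, both on the plus strand. Such short words are common: GTGTGA was in 12.3% and at least 1 receptor core motif in 38.6% of the 32851 windows of this length in the RefSeq table. The longer T-box word AGGTGTGA, found in 1.12% of windows, was in 0 of 13 windows of the 6 receptor genes. GTGTGA was in 5 of those 13, in windows of Rxra, Rxrg and Rara, of which a pair at Rara overlap.

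The other retinoid X receptors did not pass the test. Rxra, the widely expressed partner receptor (probe set 10470446, Entrez gene 20181), had levels of 10.20, 10.18 and 10.32 in Tbx1 null and 10.40, 10.30 and 10.42 in wild type. The genotypes overlapped by 0.02, between Tbx1 null replicate 3 and wild-type replicate 2. The change was -0.14 (SE 0.06, interval -0.28 to -0.01), with an unadjusted p of 0.0365 and an adjusted p of 0.470 by limma.

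Rxrb, the other widely expressed X receptor (probe set 10444137, Entrez gene 20182), had levels of 10.26, 10.20 and 10.34 in Tbx1 null and 10.26, 10.25 and 10.21 in wild type. The wild-type arrays lay inside the range of the Tbx1 null arrays. The change of 0.03 (interval -0.09 to 0.15, adjusted p = 0.912) leaves room for at most a 1.11-fold increase or a 1.06-fold decrease.

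Among the retinoic acid receptors none passed. Rara (probe set 10381082, Entrez gene 19401), a broadly expressed receptor, had levels of 10.58, 10.58 and 10.71 in Tbx1 null and 10.63, 10.57 and 10.55 in wild type. The genotypes overlapped, and the change was 0.04 (interval -0.08 to 0.16, adjusted p = 0.872).

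Rarg (probe set 10432972, Entrez gene 19411), known from embryonic mesenchyme and cartilage precursors, had levels of 11.20, 11.17 and 11.22 in Tbx1 null and 10.98, 11.18 and 11.22 in wild type. Wild-type replicate 1 was the low array, and the others lay within 0.06 of each other. The change was 0.06 (interval -0.09 to 0.22, adjusted p = 0.840) and turned to -0.01 without wild-type replicate 1. Likewise the small changes of Rxrb and Rara turned to -0.01 and -0.001 without Tbx1 null replicate 3, the array low in Y-linked genes and the highest Tbx1 null array for 4 of the 6 receptor genes.

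Rarb is both a receptor and a textbook target of retinoic acid, whose promoter carries a response element bound by its own class of receptor. Its probe set (10417713, Entrez gene 218772) had levels of 10.30, 10.44 and 10.39 in Tbx1 null and 10.20, 10.13 and 10.31 in wild type. Tbx1 null replicate 1 lay 0.01 below wild-type replicate 3, so the genotypes touched. The change was 0.16 (SE 0.06, interval 0.02 to 0.31), 1.12-fold, with an unadjusted p of 0.0307 and an adjusted p of 0.450 by limma. It was above 0 in each of the 15 alternative fits and passed in none.

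The Rarb promoter is shown for that element. The line gives the 250 bases before the RefSeq start on the minus strand of GRCm38.p6, chr14:16575477-16575726, with capitals for the same words and for the whole of the element, its spacer included.
Rarb: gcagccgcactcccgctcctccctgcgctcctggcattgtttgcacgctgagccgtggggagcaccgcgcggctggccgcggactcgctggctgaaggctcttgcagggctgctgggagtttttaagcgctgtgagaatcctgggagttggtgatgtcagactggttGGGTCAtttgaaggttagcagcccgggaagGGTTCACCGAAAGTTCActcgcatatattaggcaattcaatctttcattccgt
The element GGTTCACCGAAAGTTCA lies from -53 to -37 and consists of the core motifs GGTTCA and then AGTTCA in the same orientation, 5 bases apart. A direct repeat of any of the 4 receptor core motifs with this spacing was found in 29 of the 32851 windows (0.0883%), and in 1 of the 13 windows of the receptor genes. A further core motif, GGGTCA, lies from -83 to -78.

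Whether Rxrg differed from each of its relatives was tested by itself, on the difference between Rxrg and the other gene within each array. The Rxrg change was lower than that of Rxra by 0.53, of Rxrb by 0.71, of Rara by 0.72, of Rarg by 0.74 and of Rarb by 0.84 on the log2 scale. In each of these 5 comparisons the 3 Tbx1 null arrays lay apart from the 3 wild-type arrays, which gives an exact two-sided permutation p of 0.1, the smallest that 3 arrays against 3 allow and unchanged by Benjamini-Hochberg adjustment over the 5. A p under the threshold of 0.05 could not be reached in this design. The 5 comparisons share the same Rxrg values. The gap of 0.43 between its genotypes exceeds the range over all arrays of each other receptor, 0.15 for Rxrb to 0.31 for Rarb. The separation was therefore fixed by Rxrg alone and is no further evidence, and only the sizes of the differences are added here.

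**Figure D2:**
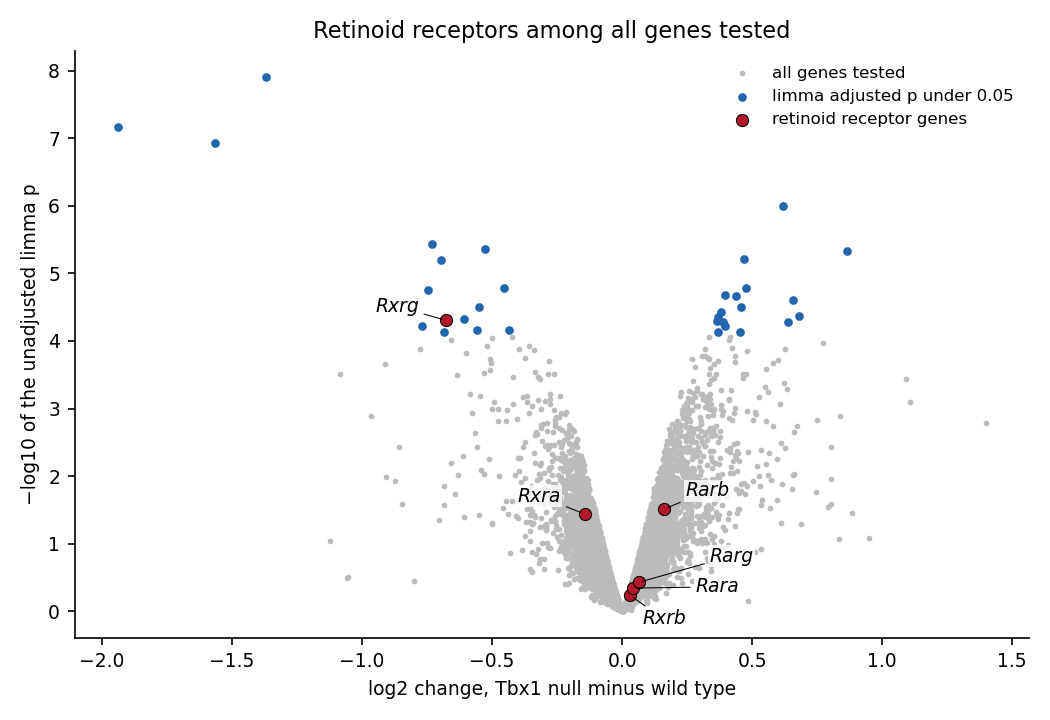
Log2 change, Tbx1 null minus wild type (horizontal axis), against −log10 of the unadjusted limma p (vertical axis) for 19938 genes (grey), with the 32 genes past an adjusted p of 0.05 in blue and the 6 retinoid receptor genes in red. Rxrg lies among the called decreases at -0.68, and the other 5 receptors lie in the cloud of genes that did not pass.

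The genes whose pattern over the 6 arrays was most like that of Rxrg were chosen by Pearson correlation, among 847 genes whose values spanned at least 0.5. As a description over 6 arrays that share the genotype split, the closest was Meox1, a homeobox gene of somites (r = 0.99), followed by Lypd1 (0.98), Eif4a3, the exon junction complex helicase (0.98), Heyl, a Notch target (0.97), and Foxe3, a forkhead factor of the lens (0.97). Meox1 had levels of 7.10, 6.92 and 7.04 in Tbx1 null and 7.62, 7.43 and 7.50 in wild type, so within each genotype replicate 2 was the lowest array, as it was for Rxrg. Its change of -0.50 just missed the threshold (limma adjusted p = 0.05002). The other 4 were lower in Tbx1 null and passed: Lypd1 with a change of -0.55, Eif4a3 with -0.56, Heyl with -0.73 and Foxe3 with -0.53 (adjusted p = 0.0374, 0.0466, 0.0133 and 0.0133). Lower levels of these genes follow from their choice by likeness to Rxrg, so the calls are no separate evidence. Over all genes 0.0752% passed as lower. Eif4a3 has a near-identical copy in the mouse genome that its probe set may also read.

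The calls of these 4 genes also depended on single arrays. Leaving out any 1 of the 6 arrays ended the calls of Lypd1 and Eif4a3 (adjusted p = 0.0844 to 0.189 and 0.0974 to 0.173). Heyl and Foxe3 did not pass without Tbx1 null replicate 1 (both 0.0796), Tbx1 null replicate 2 (0.0570 and 0.133) or wild-type replicate 2 (both 0.104), and passed without any of the others.

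Markers of the cell types in which Rxrg is known were read beside it. Of 9 measured markers of migratory crest and glia 8 lay below 0 and 1 passed (median change -0.15). At an unadjusted p under 0.05 stood 4 as lower and 0 as higher, beside 3.94% and 5.5% of all genes. The mean level of the list was 8.99 to 9.15 over the Tbx1 null arrays and 9.19 to 9.70 over the wild-type arrays. Ngfr, the low-affinity neurotrophin receptor, was the member that passed, with levels of 8.53, 8.44 and 8.53 in Tbx1 null and 9.31, 9.19 and 9.09 in wild type (change -0.70, adjusted p = 0.0142). Sox10, a HMG-box factor that marks crest cells and glia, had 8.60, 8.37 and 8.74 in Tbx1 null and 10.21, 8.87 and 9.16 in wild type (change -0.85, adjusted p = 0.435). Foxd3, a factor of early crest, had a change of -0.15 (adjusted p = 0.706).

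Wild-type replicate 1 was the high array for Sox10. Without it Sox10 had a change of -0.44, the crest list a median of -0.11 and Rxrg a change of -0.65 (adjusted p = 0.10). Ngfr passed without wild-type replicate 1 (adjusted p = 0.0407) or 3 (0.0344) and did not pass without wild-type replicate 2 (0.116) or Tbx1 null replicates 1, 2 and 3 (0.0796, 0.133 and 0.0601).

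Of 9 measured markers of muscle progenitors 8 lay below 0, 1 passed and the median change was -0.26. At an unadjusted p under 0.05 stood 5 as lower and 1 as higher (Ebf3, an early B-cell factor gene, change 0.32, adjusted p = 0.439), beside 3.94% and 5.5% of all genes. The list had a mean level of 8.41 to 8.46 over the Tbx1 null arrays and 8.77 to 8.87 over the wild-type arrays. The 1 that passed was Lhx2, a LIM-homeodomain factor, named after its value was seen (change -1.56, adjusted p = 0.000784). Myf5, the myogenic regulatory factor, had a change of -0.66 (adjusted p = 0.0509), the arch muscle factor Tcf21 one of -0.53 (0.324) and Msc, a bHLH factor of the same progenitors, one of -0.13 (0.675). Of 14 measured cranial ganglion markers 0 passed by limma, with 2 above and 2 below 0 at an unadjusted p under 0.05, and a median of -0.06. Neurog1, Neurod1 and Pou4f1, which mark sensory neuron precursors, had changes of -0.22, -0.61 and -0.07 (adjusted p = 0.673, 0.485 and 0.741). The 2 above 0 were Isl1 with 0.36 and Dcx with 0.16 (adjusted p = 0.279 and 0.412). Those below were Neurod1 and Nefl, the latter with -0.30 (0.409). Isl1, at 10.53 in Tbx1 null and 10.17 in wild type, was the only ganglion marker above the median level of all genes (8.55). Which cells gave its signal was not tested. The levels are on a log2 scale with no value at 0, so no marker can be read as absent, and the part of these cell types in the Rxrg result was not tested.

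**Figure D3:**
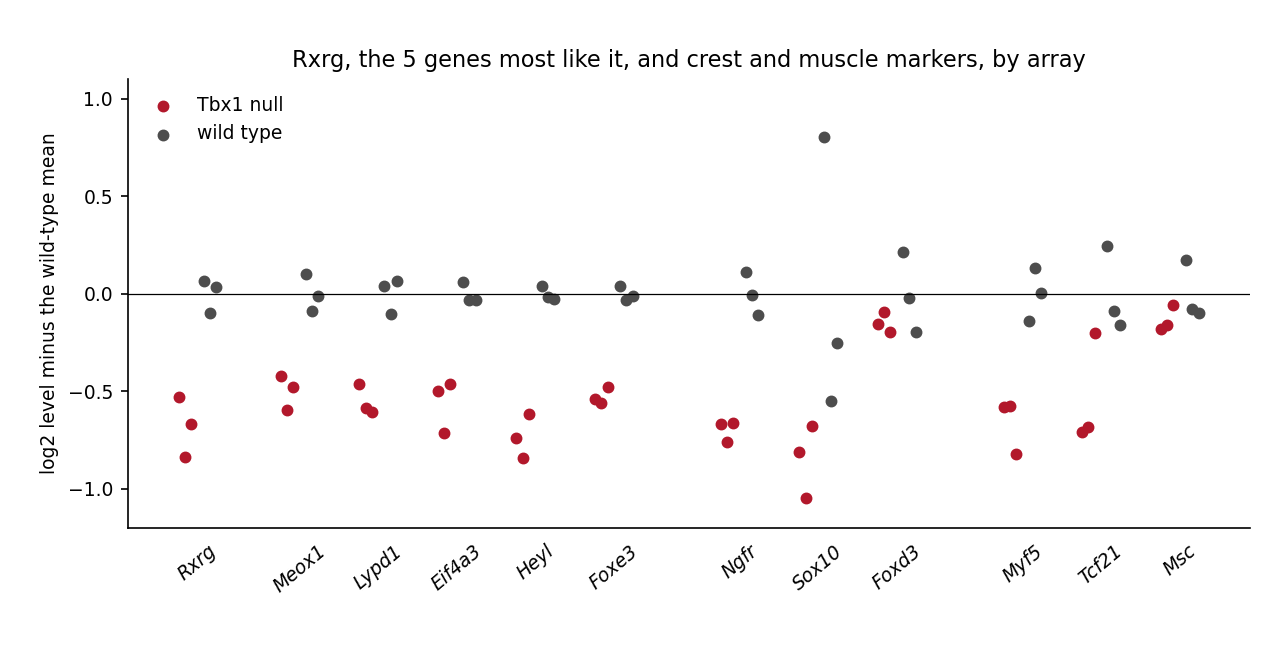
Log2 level of each array minus the wild-type mean of the same gene (vertical axis) for Rxrg, the 5 genes most like it (Meox1 to Foxe3), 3 crest markers (Ngfr, Sox10, Foxd3) and 3 muscle progenitor markers (Myf5, Tcf21, Msc); each point is 1 array, Tbx1 null left of wild type. The Tbx1 null points of Rxrg and its 5 closest genes lie below all their wild-type points. For the 5 this follows from their choice by likeness to Rxrg. Ngfr, Sox10, Myf5 and Tcf21 do not overlap either, Tcf21 by a narrow gap, and Foxd3 and Msc overlap. Sox10 has a wild-type array far above the others. Over all genes 7.06% did not overlap in the lower direction.

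In the rest of the retinoid pathway a single gene passed, Meis1. Of 91 other genes on the lists of this pathway and its receptor superfamily, 82 were measured, 1 passed as higher and 0 as lower, beside the 0.16% of all genes that passed. At an unadjusted p under 0.05, 6 were higher and 6 lower, beside 5.5% and 3.94% of all genes. The counts of each list below are to be read beside the same shares. The median change was -0.01, as it was over all genes.

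Genes of retinoid supply gave no call among 12 measured (limma; at an unadjusted p under 0.05, 2 were higher and 1 lower; median -0.03). Rdh10, the dehydrogenase that makes retinaldehyde from retinol in the embryo, had levels of 9.62, 9.64 and 9.81 in Tbx1 null and 9.44, 9.38 and 9.56 in wild type (change 0.23, adjusted p = 0.358). The genotypes did not overlap, although the gap was narrow. Rdh11, a related dehydrogenase, had a change of 0.36 (adjusted p = 0.277), and Rbp4, the retinol carrier of blood, one of -0.13 (0.488). Of the 12 supply genes, 9 reached the first quartile of level over all genes (6.81), while Aldh1a1, Aldh1a2 and Lrat did not. Aldh1a2 averaged 5.97 in Tbx1 null and 5.92 in wild type (change 0.05, adjusted p = 0.878). At such levels a change may be understated or missed.

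Genes that bind or clear retinoic acid gave no call among 6 measured (limma, 0 at an unadjusted p under 0.05; median -0.05). Cyp26a1, the clearing enzyme that retinoic acid itself induces, had levels of 7.75, 7.97 and 8.27 in Tbx1 null and 8.63, 7.97 and 8.45 in wild type. The arrays of each genotype spread widely and overlapped (change -0.35, SE 0.18, adjusted p = 0.619). Its relative Cyp26b1 had a change of 0.10 (0.675), and Crabp1, a cytoplasmic retinoic acid binding protein and one of the brightest genes here at 13.80 ± 0.03 in Tbx1 null and 13.84 ± 0.03 in wild type, one of -0.04 (0.830).

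Of 15 measured genes known to respond to retinoic acid, 1 rose, 0 fell and 14 did not pass (median -0.05). Meis1, a TALE homeodomain factor, had levels of 10.76, 10.67 and 10.66 in Tbx1 null and 10.21, 10.19 and 10.31 in wild type, a change of 0.46 (SE 0.05, adjusted p = 0.0374). The genotypes lay apart. It passed without wild-type replicate 3 (adjusted p = 0.0457) but not without wild-type replicate 1 or 2 (0.0873 and 0.159) or Tbx1 null replicates 1, 2 and 3 (0.128, 0.170 and 0.10).

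Nr2f1 and Nr2f2, orphan nuclear receptors that retinoic acid induces in several tissues and that bind the same core motifs, went the other way without passing. Nr2f1 had levels of 10.69, 10.59 and 10.72 in Tbx1 null and 11.06, 10.95 and 10.99 in wild type (change -0.33, adjusted p = 0.0798), and its genotypes did not overlap. Nr2f2 had a change of -0.23 (adjusted p = 0.239). Members of the list thus lay on both sides of 0, 6 above and 9 below, and with 1 array left out its median ran from -0.11 without wild-type replicate 3 to -0.02 without wild-type replicate 2.

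Coregulators, which the receptors recruit to open or close chromatin, gave no call among 16 measured (limma, 0 at an unadjusted p under 0.05; median 0.03), and their changes lay between -0.06 and 0.10. The coactivators Ncoa2 and Ncoa3 had changes of 0.10 each and the histone methyltransferase gene Nsd1 one of 0.09 (adjusted p = 0.569, 0.674 and 0.638).

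Receptors that pair with a retinoid X receptor gave no call among 12 measured (limma; at an unadjusted p under 0.05, 2 were higher and 0 lower; median -0.03). Vdr, the vitamin D receptor, had levels of 8.25 ± 0.06 in Tbx1 null and 8.02 ± 0.03 in wild type (SD, n = 3 each), a change of 0.24 with an adjusted p of 0.150. Thrb, a thyroid hormone receptor, had a change of 0.19 (0.502), and Nr1h4, the bile acid receptor, one of -0.10 (0.571). Both were dim, with mean levels in Tbx1 null and wild type of 6.85 and 6.66 for Thrb and 6.01 and 6.11 for Nr1h4. Of the 12 partner receptors, 8 reached the first quartile of level over all genes (6.81), and changes of dimmer ones may be understated. Of 26 other nuclear receptors measured, 0 passed by limma, while 1 above and 4 below 0 had an unadjusted p under 0.05, with a median of -0.04. Besides Nr2f1 the lowest p-values there were those of Nr5a2, an orphan receptor of early embryo and liver, with a change of -0.36 (adjusted p = 0.0574), and Nr2c2, with 0.19 (0.195). Among the 38 measured nuclear receptors outside the retinoid family, 0 passed in either direction, while 3 above and 4 below 0 had an unadjusted p under 0.05. Some did pass in alternative fits: Nr5a2 in 3 (lowest adjusted p 0.0069), Nr2f1 in 2 (0.018) and Nr2f2 and Vdr in 1 each.

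**Figure D4:**
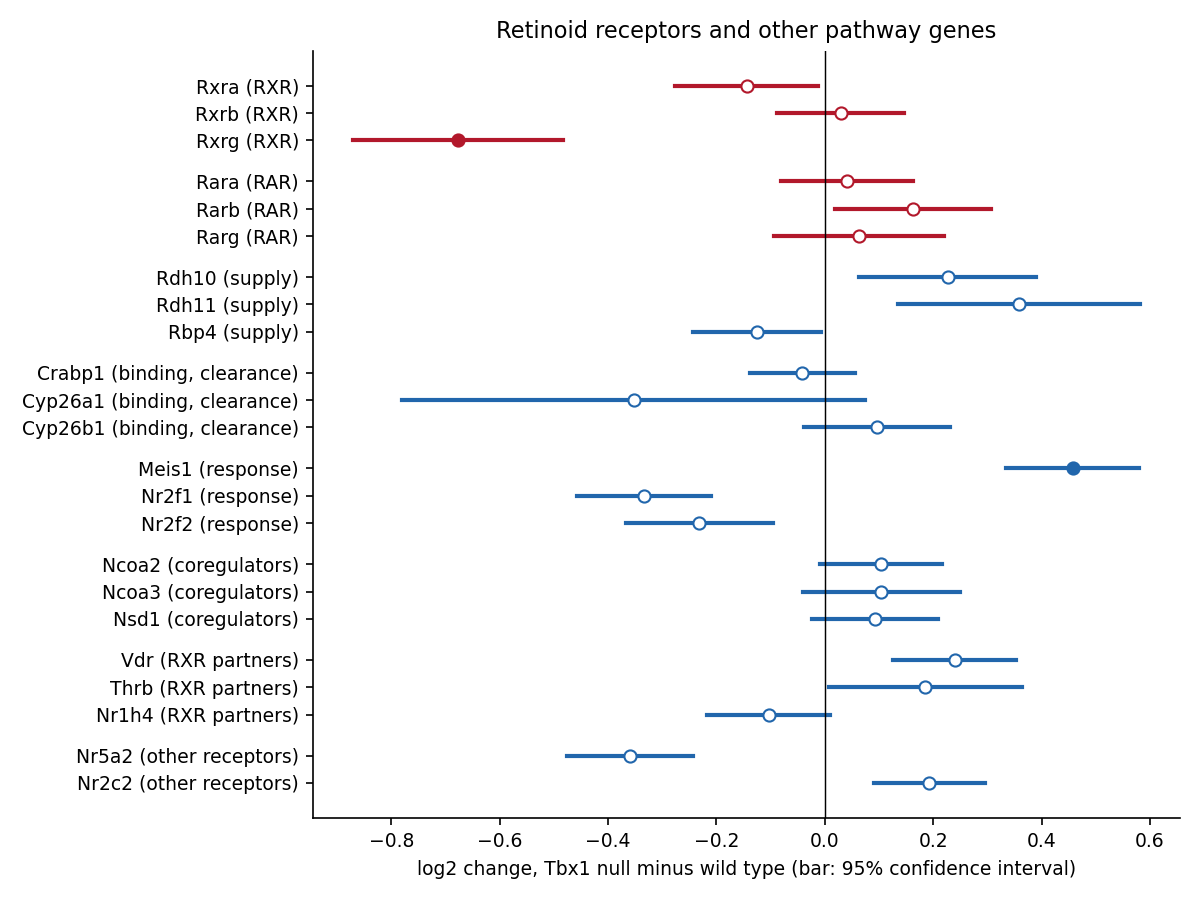
Log2 change, Tbx1 null minus wild type (horizontal axis), of the 6 retinoid receptor genes (red) and of the pathway genes of lowest p in each list (blue); points are changes, bars are 95% confidence intervals of the limma fit, and filled points passed an adjusted p of 0.05. Rxrg at -0.68 and Meis1 at 0.46 are the filled points.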

How the data were processed

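Levels were measured on 6 Affymetrix Mouse Gene ST 1.0 arrays of mandibular arch RNA, 3 per genotype. The authors deposited log2 expression values per probe set, made with RMA, and the submitters' processing notes name Affymetrix Expression Console 1.1. That they are log2 follows from their range, 3.63 to 14.6. Summary level and filters: not given in the sources used here. RMA makes the arrays' distributions alike, so a shift shared by most genes cannot be seen and dim probe sets understate changes. There is no read depth.

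Of 35556 probe sets, 21789 had 1 gene symbol in the platform annotation, 1621 several and 12146 none. A lookup of Entrez IDs in RefSeq (GRCm38.p6) changed 0 symbols. The brightest probe set per gene was kept, giving 19938 genes, and 0 probe sets with several symbols named a receptor of the family. The fit used limma 3.58.1 under R 4.3.3 (lmFit, eBayes, two-sided, no covariate), with Benjamini-Hochberg adjustment over all genes. The code was tested on simulated data, and 0 pairs of arrays were identical.

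The family, the gene lists and the tests were chosen with earlier results of these data known. Named genes are Tbx1, the 6 receptors, the 3 of lowest p and any called gene in each pathway list, the first 3 measured genes of each marker list, and the 5 genes most like a called receptor. Outside this rule, the markers Msx2, Lhx2, Ebf3, Isl1, Dcx and Nefl were named after their values were seen. Aldh1a1, Aldh1a2, Lrat and the Y-linked genes were named for their levels, and neighbours of the receptor genes for their position. Listed genes with no probe set of their own symbol are not analysed here. Alternatives were a replicate block, leaving out each array, quantile normalisation again, median centring, low-level filters, trended robust eBayes, weighted arrays, averaged probe sets and all probe sets tested. Promoters are RefSeq sequences, read as the 250 bases before each start and searched on both strands. Same-numbered arrays did not deviate together in every pair (correlations of -0.05, 0.26 and 0.15), so the numbers were not taken to pair the samples.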

Additional observations from a re-analysis of the deposited data

How the results depend on the processing

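Rxrg was below 0 in each of the 14 alternatives that tested it and passed in 7: the replicate block (adjusted p = 0.0450), quantile normalisation again, median centring, the first-quartile filter, the mean of probe sets, eBayes with trend and robust estimation, and array weights, with changes of -0.71 to -0.62 and adjusted p of 0.0102 to 0.0450. It did not pass over every probe set (change -0.68, adjusted p = 0.132), where the adjustment covers 35556 features, nor with any array left out (-0.75 to -0.60). The filter at the median level removed it, leaving 0 receptors called; that count was also 0 over every probe set and 0 with any array left out, and 1 otherwise. The count of all genes called, 32, was 6 under the replicate block, 4 over every probe set, 96 with trend and robust estimation, 334 with array weights and 3 to 20 with an array left out; the cause was not tested. The split of 17 higher and 15 lower became 12 and 22 after quantile normalisation again, and 16 and 30 after median centring. The block also ended the calls of Meis1, Ngfr, Lypd1, Eif4a3, Heyl and Foxe3 (adjusted p = 0.0628 to 0.0970) and turned none. Alternatives also gained calls. Of erythroid markers 4 passed with trend and robust estimation, 4 with array weights, 2 after median centring, 2 with the median-level filter and 1 after quantile normalisation again. Of the list of other nuclear receptors 2 passed with trend and robust estimation, 3 with array weights and 1 after median centring, and of the listed X partners 1 with array weights. Epithelial genes gave 1 and 2 calls with trend and robust estimation and with array weights, and Hox genes 1 in each of those and after median centring. Meox1 passed in 5 alternatives and Myf5 in 4. The difference between Rxrg and each other receptor kept its direction in the 7 alternatives run. Array weights turned Rxrb to -0.00058 and Pecam1 to -0.0019, and Epcam turned to -0.0042 after quantile normalisation again and to -0.023 after median centring. With an array left out, Rxrb ran from -0.0097 to 0.063, Rara from -0.0013 to 0.063, Rarg from -0.010 to 0.11, Pecam1 from -0.053 to 0.10, Cdh5 from -0.10 to 0.012, Kdr from -0.11 to 0.011 and Epcam from -0.047 to 0.047. Signal over background could not be judged, which limits the dim probe set of Rxrg most among the receptors.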

Other observations

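The nearest measured protein-coding neighbours of the receptor genes, 1 on each side in RefSeq order, were read after the receptors. The neighbours of Rxrg were Lrrc52, with a change of -0.01 (limma adjusted p = 0.984), and Nuf2, a kinetochore gene, with -0.04 (0.902). Neither was lower by more than the spread of its arrays, whereas Rxrg itself had a change of -0.68. Lrrc52 was dim, with means of 6.48 in Tbx1 null and 6.49 in wild type, below the first quartile of level over all genes (6.81). A decrease of Lrrc52 could therefore have been missed. Among the 10 neighbours of the other 5 receptors the lowest unadjusted p was that of Thrb beside Rarb (change 0.19, adjusted p = 0.502). The other neighbour of Rarb, Top2b, had a change of 0.01.

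Markers of other tissue that the dissection could hold were read on the same arrays. All 7 measured primitive erythroid genes lay below 0 with no overlap between genotypes (median -0.30), a pattern that 7.06% of all genes showed. Among them were the embryonic globins Hba-x, Hbb-y and Hbb-bh1 with changes of -0.20, -0.17 and -0.21 (limma adjusted p = 0.210, 0.424 and 0.190). All 7 surface epithelium genes lay above 0 (median 0.23), 5 of them with no overlap, beside 8.36% of all genes in that direction. The basal keratin Krt14 had a change of 0.43, Trp63 one of 0.23 and Epcam one of 0.003 (adjusted p = 0.137, 0.172 and 0.994). Of the Hox genes of more posterior arches, Hoxa2, Hoxb2 and Hoxa3 had changes of 1.11, 0.63 and 0.04 (adjusted p = 0.126, 0.0577 and 0.840). Hoxa2 and Hoxb2 were the 2 of 5 measured Hox genes with no overlap, both as higher. Endothelial genes had a median of -0.03, with Pecam1, Cdh5 and Kdr at 0.04, -0.03 and -0.04 (adjusted p = 0.923, 0.916 and 0.908). Of these 4 lists 0 members passed over all genes (limma), with 0, 5, 2 and 0 higher and 7, 0, 0 and 0 lower at an unadjusted p under 0.05 for erythroid, epithelial, Hox and endothelial genes, beside 5.5% and 3.94% of all genes. In alternative fits up to 4 erythroid, 2 epithelial and 1 Hox gene passed, and 0 endothelial genes. The part of these tissues in the receptor values was not tested.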
